A study of Mus musculus with 6 samples.

Results

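ER-associated degradation (ERAD) was examined through the mRNA levels of 36 genes of its machinery in mouse liver. The genes were chosen by name, from 35540 genes with a symbol, and fall into 3 steps: recognition of misfolded proteins (9 genes), the ubiquitin ligases and their partners (16 genes) and extraction from the membrane (11 genes). The derlins, a family of membrane proteins of the same pathway, are not among them. Each of 6 livers gave a library of its own: 3 were of genotype Surf4 fl/fl Alb-Cre+ and 3, the controls, of genotype Surf4 fl/fl Alb-Cre-. In both genotypes exon 2 of both Surf4 alleles is flanked by loxP sites, and the Alb-Cre+ mice also carry a Cre recombinase driven by the albumin promoter, so that deletion is aimed at hepatocytes and other liver cells keep the gene. Within a genotype, replicate 2 was a female mouse and replicates 1 and 3 were males, all on a C57BL/6J background with free access to 5L0D chow and, per the methods, an overnight fast before collection. The age of these 6 mice is not given in the sources used here. SURF4 is a receptor that carries secretory proteins out of the ER, and the comparison addresses whether the liver's ERAD genes differ in level without it.

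ERAD removes proteins that fail to fold in the endoplasmic reticulum. Mannosidases and lectins mark and read such glycoproteins, membrane-embedded ligases such as the complex of HRD1 (Syvn1) with SEL1L attach ubiquitin to them on the cytosolic side, and the ATPase p97 (Vcp) with its cofactors pulls them out of the membrane for the proteasome. Several ERAD genes are known targets of the unfolded protein response, in which the transcription factors XBP1 and ATF6 act on short promoter elements. In the liver, a tissue that secretes most plasma proteins, the pathway also degrades regulated membrane enzymes such as HMG-CoA reductase.

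The values are TPM (transcript abundances corrected for transcript length and scaled to a sum of 1000000 in each mouse), added up over the transcripts of each gene. Read numbers cannot be recovered from TPM, so library depth is unknown and no counting error can be given. Between 10059 and 11125 genes had at least 1 TPM in a mouse. Surf4 itself had 92.5, 94.5 and 92.5 TPM in the controls (replicates 1, 2 and 3) and 59.0, 71.8 and 54.3 TPM in Alb-Cre+ mice. The ranges did not overlap, although its log2 fold change of -0.60 was not called (limma, adjusted p = 1.00). TPM of the gene can include mRNA that lacks the deleted exon, so they do not measure how much intact Surf4 mRNA remained. The paper reports that such shortened mRNA persists in Alb-Cre+ livers, while mRNA that keeps the exon is strongly reduced. All 8 hepatocyte markers examined were present, with a summed level of 75340 to 89110 TPM in controls and 59020 to 78160 TPM in Alb-Cre+ mice, and no marker of the 7 other cell type lists was at 0 in all mice. The lowest hepatocyte sum belonged to Alb-Cre+ replicate 3. By point estimate 6 of the 8 hepatocyte markers were lower in Alb-Cre+ mice and 2 higher, with a median log2 fold change of -0.13. In 2 of the 8 all Alb-Cre+ values were below all control values, where 2.71% of the 14189 genes tested had this pattern. None of the 8 was called. In both genotypes the female mouse had the highest sum of the 8 Kupffer cell or macrophage markers, 710.2 and 760.4 TPM against 209.9 to 306.6 TPM in the male mice. The sums for sinusoidal endothelial, stellate, B or plasma, and T or NK cells were also highest in the female mouse of each genotype. The cholangiocyte and erythroid sums did not share this pattern. In bulk liver RNA, fewer cells of a type and less RNA per cell cannot be told apart.

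Promoter sequence is shown first for the 4 genes in which a published response element of the unfolded protein response was found, since these elements are how the pathway is known to be switched on. The elements searched, on both strands, were ERSE (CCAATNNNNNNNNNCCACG), ERSE-II (ATTGGNCCACG) and UPRE (TGACGTGG). RefSeq promoter windows (GRCm38.p6, 250 bases before to 50 bases after the start) were at hand for 30 of the 36 genes. ERSE was in the window of Syvn1, ERSE-II in that of Herpud1, and UPRE in those of Ube2j1 and Vcp. Of all 32851 windows, 0.119% held ERSE, 0.037% ERSE-II and 0.676% UPRE. A match describes the letters only and is not a measured binding site. In each stretch below, read 5′ to 3′ on the strand of the gene, the capitals mark the element.
Herpud1, chr8:94386329-94386428, plus strand, positions -100 to -1: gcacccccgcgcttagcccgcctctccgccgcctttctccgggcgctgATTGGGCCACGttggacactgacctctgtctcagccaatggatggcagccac
Syvn1, chr19:6046476-6046575, plus strand, positions -100 to -1: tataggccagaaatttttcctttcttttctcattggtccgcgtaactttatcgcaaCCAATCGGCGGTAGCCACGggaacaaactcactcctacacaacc
Ube2j1, chr4:33031272-33031371, plus strand, positions -108 to -9: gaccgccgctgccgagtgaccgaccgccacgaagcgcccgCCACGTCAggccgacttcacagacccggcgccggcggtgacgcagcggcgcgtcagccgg
Vcp, chr4:43000562-43000661, minus strand, positions -154 to -55: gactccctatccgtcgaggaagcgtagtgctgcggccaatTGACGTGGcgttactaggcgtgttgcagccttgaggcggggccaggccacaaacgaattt
The element in Ube2j1 lies on the opposite strand and therefore reads as its reverse complement. The levels of these 4 genes did not share a direction: by point estimate Syvn1 was higher in Alb-Cre+ mice, while Herpud1, Ube2j1 and Vcp were lower (log2 fold changes of 0.34, -0.45, -0.07 and -0.04).

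All 36 genes were expressed at 1 TPM or more in every mouse, and all 36 entered the comparison between genotypes. No ERAD gene was called between the genotypes. Most point estimates were lower in Alb-Cre+ mice but small: 32 of 36 were lower, where 50.4% of the 14189 genes tested were, and the median log2 fold change was -0.07 against -0.0017 for all genes tested. Among the 7052 genes tested at 5 TPM or more, where 34 of the 36 lie, 57.2% were lower and the median was -0.0239. Among genes whose genotypes were separated, the fitted differences were greatest for Herpud1 (-26.6%) and Selenos (-22.2%), and neither passed the adjusted threshold. The 4 genes above their control level by point estimate were all in the ligase step: Syvn1, Sel1l, Fam8a1 and Trim13.

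**Figure D1:**
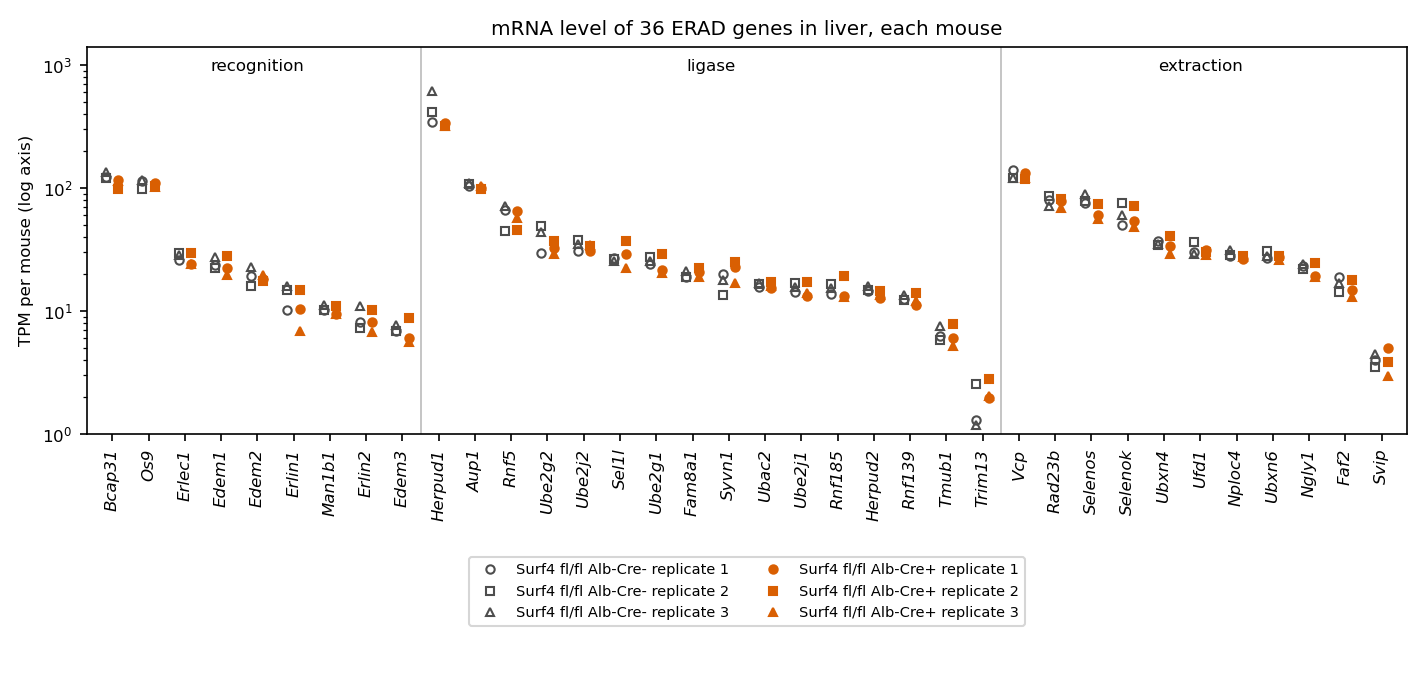
TPM of each of the 36 ERAD genes (log axis) in each of the 6 mice, by step and in order of mean level. Open symbols are Surf4 fl/fl Alb-Cre- mice, filled symbols Surf4 fl/fl Alb-Cre+ mice, and the shape gives the replicate number. Levels run from about 1.18 TPM for Trim13 to 614 TPM for Herpud1, and the genotypes lie close together for nearly every gene.

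Genes were compared on log2(TPM + 0.1) with limma, which moderates each gene's variance, with Benjamini-Hochberg adjustment over all 14189 genes. Fold changes are on that scale, Alb-Cre+ minus Alb-Cre-, which understates the change of low genes. At an adjusted p of 0.01, 0 genes of all tested were called (0.0%), and the smallest adjusted p among the 36 was 1.00. At an unadjusted p under 0.05, 250 of all genes (1.76%) and 1 of the 36 ERAD genes, Selenos, were counted. With the replicate block, a fit that compares same-numbered mice, 666 genes (4.69%) and again 1 ERAD gene, Selenos, had an unadjusted p under 0.05. The 95% confidence interval of the log2 fold change lay between -1 and 1, that is within a 2-fold change either way, for 34 of the 36 genes and for 62.5% of all genes tested. The exceptions were Erlin1 and Trim13. Among the genes tested at 5 TPM or more that share was 86.7%.

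In 5 ERAD genes all Alb-Cre+ values were below all control values (Bcap31, Herpud1, Aup1, Nploc4 and Selenos), and in none above. Over all genes tested, 2.71% had all Alb-Cre+ values below all control values. This count depended on how mice were scaled to each other. After median-of-ratios scaling, which equalises the median gene between mice, 2 ERAD genes were separated in this way (Selenos and Ube2g1), against 2.9% of all genes. The count of lower point estimates was 32 under both scalings. It could hardly move, since this scaling shifts all log2 fold changes nearly alike (Aup1 from -0.083 to -0.0846), so it is no check of direction.

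The recognition step holds the mannosidases, lectins and adaptors that find substrates. All 9 genes had lower point estimates in Alb-Cre+ mice, with a median log2 fold change of -0.08, 0 of 9 had an unadjusted p under 0.05 and 1 of 9 was separated between genotypes. Bcap31, an ER membrane chaperone that escorts membrane proteins and the only one of the 36 genes on the X chromosome, was the most abundant gene of this step on average (GRCm38 chrX:73686178-73716175, minus strand). It had 123.8, 119.9 and 135.0 TPM in controls and 115.1, 98.0 and 113.8 TPM in Alb-Cre+ mice. Every Alb-Cre+ value was lower than every control value, by a narrow margin between 115.1 and 119.9 TPM. The log2 fold change was -0.21 with an SE of 0.12 (limma, adjusted p = 1.00), with means of 126.3 ± 7.82 and 109.0 ± 9.54 TPM (SD, n = 3 mice each).

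Erlin1, which with Erlin2 forms a ring-shaped membrane scaffold that hands the inositol trisphosphate receptor and HMG-CoA reductase to ERAD, had the largest fold change of the recognition step. It had 10.2, 15.0 and 16.0 TPM in controls and 10.3, 14.7 and 6.83 TPM in Alb-Cre+ mice. The genotypes overlapped, and the pairs of replicates 1 and 2 were nearly level while replicate 3 of the Alb-Cre+ mice was the lowest of all. The log2 fold change of -0.41 with an SE of 0.31 (limma, adjusted p = 1.00) became -0.13 without Alb-Cre+ replicate 3 and -0.68 without the female Alb-Cre+ mouse, the ends of its range over the 6 fits with a mouse left out. Its partner Erlin2 ranged from 6.81 to 10.9 TPM with a log2 fold change of -0.06.

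The other recognition genes overlapped between genotypes. The mannosidase Man1b1, which trims the glycans of slowly folding proteins, ranged from 9.38 to 11.3 TPM. Its relatives Edem1, Edem2 and Edem3, which trim further and expose the degradation signal, ranged from 19.8 to 28.2, 16.0 to 23.0 and 5.60 to 8.77 TPM. The lectins that read the trimmed glycan differed in level: Os9 ranged from 97.4 to 115.3 TPM and Erlec1 (XTP3-B) from 24.0 to 29.9 TPM. Os9 exceeded Erlec1 in TPM by 3.30 to 4.51 times within each mouse, and this ratio was 3.90 ± 0.54 in controls and 4.07 ± 0.56 in Alb-Cre+ mice (SD, n = 3). Edem3 was the least abundant of the 3 EDEM genes in all 6 mice. Log2 fold changes of these 6 genes lay between -0.11 and -0.05, each smaller than its own standard error.

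The ligase step was the only one with genes on both sides of 0: 12 of its 16 genes had lower and 4 higher point estimates, with a median log2 fold change of -0.06. No gene of the step had an unadjusted p under 0.05. Herpud1, a short-lived membrane protein that organises the HRD1 complex and a classical target of the unfolded protein response, was the most abundant of the 36 genes (GRCm38 chr8:94386438-94395377, plus strand). It had 343.0, 417.1 and 613.8 TPM in controls and 339.4, 320.4 and 319.8 TPM in Alb-Cre+ mice. The control mice were spread widely (458.0 ± 140.0 TPM) and the Alb-Cre+ mice were close together (326.5 ± 11.1 TPM; SD, n = 3 each), so the values were separated although replicate 1 hardly differed between genotypes. The log2 fold change was -0.45 with an SE of 0.21 (limma, adjusted p = 1.00), and with a mouse left out it ranged from -0.63 (without control replicate 1) to -0.21 (without control replicate 3). After median-of-ratios scaling, which shifts all log2 fold changes nearly alike, the log2 fold change was again -0.45, but the values overlapped. Its paralog Herpud2 ranged from 12.8 to 16.0 TPM, with a log2 fold change of -0.15.

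The core of the ligase, Syvn1 (HRD1, the catalytic subunit) and Sel1l (the adaptor that stabilises it), had higher point estimates in Alb-Cre+ mice, and is described because of that direction, chosen after the values were seen. Syvn1 had 19.9, 13.5 and 17.9 TPM in controls and 23.0, 25.1 and 16.8 TPM in Alb-Cre+ mice. Sel1l had 26.8, 26.6 and 25.5 TPM in controls and 29.2, 37.0 and 22.6 TPM in Alb-Cre+ mice. In both genes the female Alb-Cre+ mouse was the highest of the 6, and for both the Alb-Cre+ mouse of pair 3 was below its control. The log2 fold changes were 0.34 for Syvn1 (SE 0.22) and 0.14 for Sel1l (SE 0.19), each with an adjusted p of 1.00. In male mice alone these were 0.06 and -0.0265, and with a mouse left out they ranged from 0.18 (without the female control) to 0.51 for Syvn1 and from -0.0339 (without the female Alb-Cre+ mouse) to 0.32 for Sel1l, both highest without Alb-Cre+ replicate 3. Sel1l exceeded Syvn1 in TPM by 1.27 to 1.97 times within each mouse. Fam8a1, a further subunit of the complex, ranged from 18.8 to 22.5 TPM with a log2 fold change of 0.07, and -0.0178 in male mice alone.

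Trim13 (RFP2), an ER-anchored ligase, was the least abundant of the 36 genes and had the largest positive fold change. It had 1.31, 2.57 and 1.18 TPM in controls and 1.96, 2.78 and 2.03 TPM in Alb-Cre+ mice. Within each pair the Alb-Cre+ mouse was higher, and it was the only ERAD gene with this pattern, but the female control exceeded both male Alb-Cre+ mice. The log2 fold change was 0.46 with an SE of 0.35 (limma, adjusted p = 1.00), and with a mouse left out it ranged from 0.26 (without control replicate 3) to 0.79 (without the female control). Of the 31-base stretches in its annotated transcripts, 28.7% also occur in another gene, so reads could be divided between genes by the authors' quantification.

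Aup1, which links lipid droplets and the conjugating enzyme Ube2g2 to the ligases, had 104.6, 106.9 and 109.1 TPM in controls and 100.9, 97.9 and 104.0 TPM in Alb-Cre+ mice. The genotypes were separated by less than 1 TPM, between 104.0 and 104.6 TPM, and the log2 fold change was -0.08 with an SE of 0.10 (limma, adjusted p = 1.00). Aup1 was also the ERAD gene with the smallest spread between mice of a genotype, 0.038 on the log2 scale, beside a median of 0.18 for the 36 genes and 0.33 for all genes tested. On the opposite strand 23.0% of its exon bases overlap Htra2.

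The remaining ligases and conjugating enzymes overlapped between genotypes. The small membrane ligase Rnf5 ranged from 44.6 to 71.9 TPM, its close relative Rnf185 from 12.9 to 19.3 TPM, and the sterol-regulated ligase Rnf139 (TRC8) from 11.2 to 14.0 TPM. Of the conjugating enzymes, the membrane-bound Ube2j1 ranged from 13.2 to 17.4 TPM and Ube2j2 from 30.6 to 37.9 TPM, and the soluble Ube2g1 ranged from 20.5 to 29.1 TPM and Ube2g2 from 28.9 to 49.3 TPM. Ube2g2 had the most negative log2 fold change of these, -0.29 (SE 0.21), with overlapping values. Tmub1, a membrane protein with a ubiquitin-like domain, ranged from 5.21 to 7.82 TPM and Ubac2, which anchors ubiquitin-binding factors in the ER membrane, from 15.3 to 17.1 TPM. Reads of some are partly ambiguous: 16.8% of the 31-base stretches of Rnf5 and 14.1% of those of Ube2j2 occur in other genes, and 24.7% of the exon bases of Rnf5 and 22.3% of those of Rnf139 overlap a gene on the opposite strand, while the strandedness of the libraries is not given in the sources used here.

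**Figure D2:**
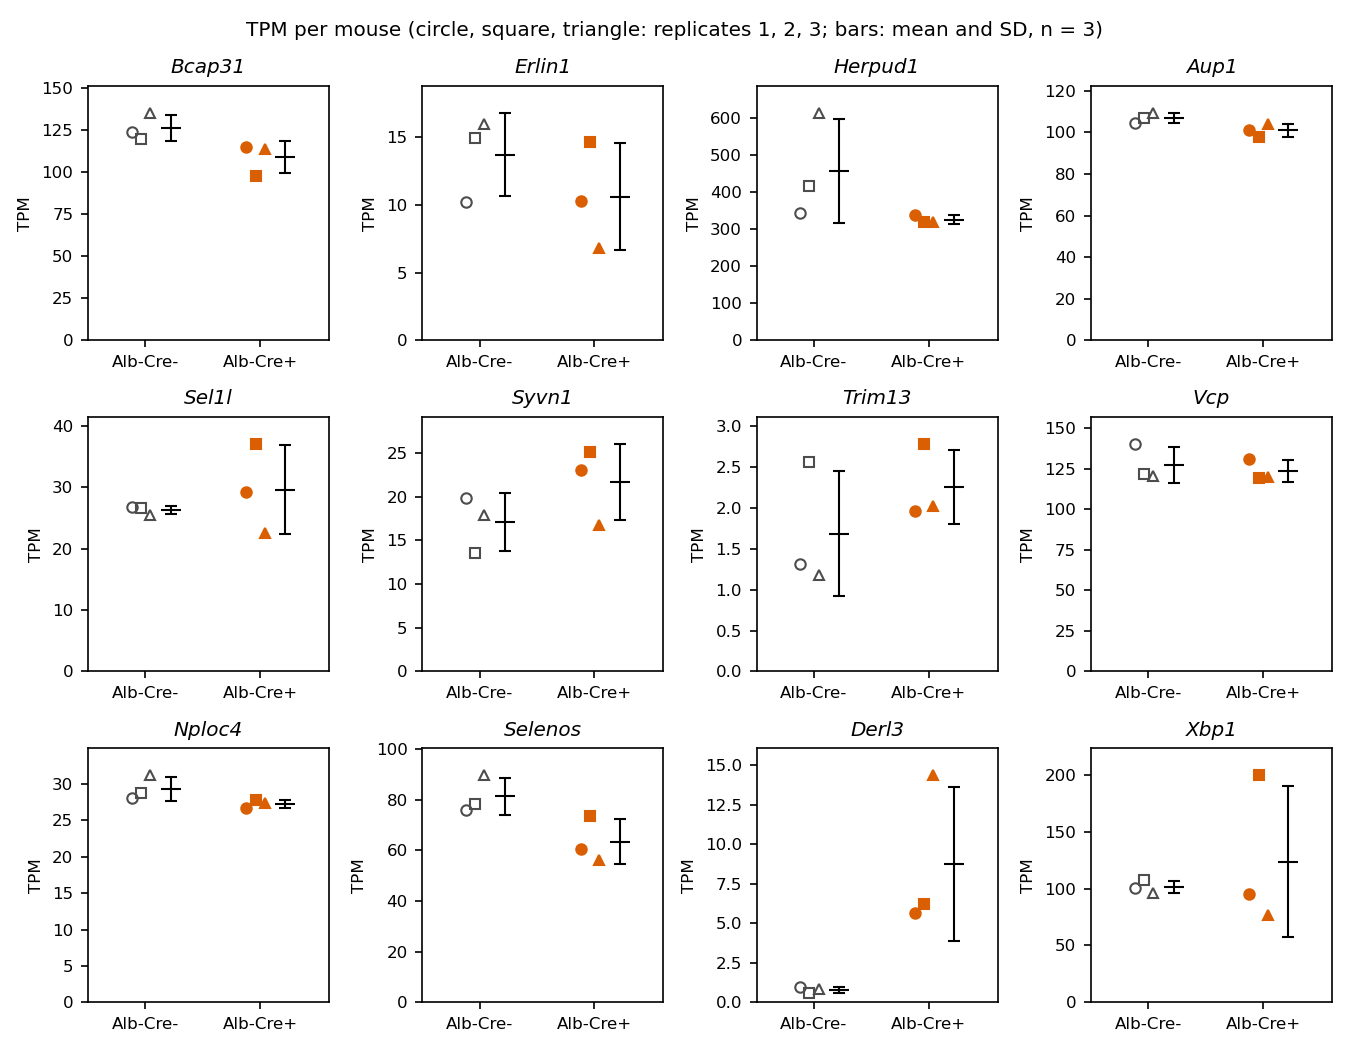
TPM in each mouse for 10 ERAD genes and for Derl3 and Xbp1, with the mean and SD of each genotype beside the points (n = 3). Bcap31, Herpud1, Aup1, Nploc4 and Selenos are separated between genotypes with the Alb-Cre+ mice lower, Derl3 is separated with the Alb-Cre+ mice higher, and the other 6 genes overlap.

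The extraction step holds p97 and the factors that bring it to the membrane and pass its substrates on. All 11 genes had lower point estimates, with a median log2 fold change of -0.08, and 1 of 11 had an unadjusted p under 0.05. Selenos (VIMP), a selenoprotein that ties p97 to the derlins at the membrane (GRCm38 chr7:66079649-66089405, plus strand), had 75.8, 78.5 and 89.7 TPM in controls and 60.5, 73.7 and 56.4 TPM in Alb-Cre+ mice. All Alb-Cre+ values were below all control values, also after median-of-ratios scaling. It follows that the Alb-Cre+ mouse was the lower one in all 3 pairs. Its genotype difference was -0.36 on the log2 scale (SE 0.14; 95% confidence interval -0.70 to -0.02). In limma its unadjusted p was 0.0387 (adjusted, 1.00), and 0.0400 in the fit with the replicate block. Its unadjusted p exceeded 0.05 when any mouse except the female Alb-Cre+ mouse was left out, with log2 fold changes of -0.28 to -0.47 over the 6 fits, and it was 0.0869 with limma without the trend on mean level.

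Vcp, the p97 ATPase itself, was the most abundant gene of the extraction step on average. It had 140.0, 121.5 and 120.5 TPM in controls and 131.2, 119.4 and 120.1 TPM in Alb-Cre+ mice. Its genotype difference was -0.041 on the log2 scale (SE 0.12; 95% confidence interval -0.32 to 0.23), and 0.029 without control replicate 1. In its transcripts, 43.9% of the 31-base stretches also occur in another annotated gene. Nploc4 (NPL4), one of the paired cofactors that let p97 grip ubiquitin chains, had 28.1, 28.8 and 31.2 TPM in controls and 26.7, 27.8 and 27.4 TPM in Alb-Cre+ mice. Its values were separated between 27.8 and 28.1 TPM, with a log2 fold change of -0.10 with an SE of 0.11 (limma, adjusted p = 1.00). Its partner Ufd1 ranged from 28.3 to 36.3 TPM, and Ufd1 and Nploc4 were nearly equal in TPM, with a ratio of 1.09 ± 0.16 in controls and 1.10 ± 0.07 in Alb-Cre+ mice (SD, n = 3).

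The other extraction genes overlapped between genotypes. The membrane recruiters of p97, Faf2 (UBXD8) and Ubxn4 (erasin), ranged from 12.9 to 18.8 and from 28.9 to 40.9 TPM, and the cytosolic cofactor Ubxn6 from 26.2 to 30.5 TPM. Of the exon bases of Ubxn6, 81.8% overlap Chaf1a on the opposite strand. Selenok, a second selenoprotein partner of p97, ranged from 48.2 to 75.1 TPM, and Svip, a small inhibitor of ERAD that binds p97, from 2.98 to 4.97 TPM. Ngly1, the cytosolic enzyme that strips glycans from extracted proteins, ranged from 18.8 to 24.8 TPM, and the shuttle factor Rad23b, which delivers them to the proteasome, from 68.3 to 86.3 TPM. Their log2 fold changes lay between -0.16 and -0.04.

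**Figure D3:**
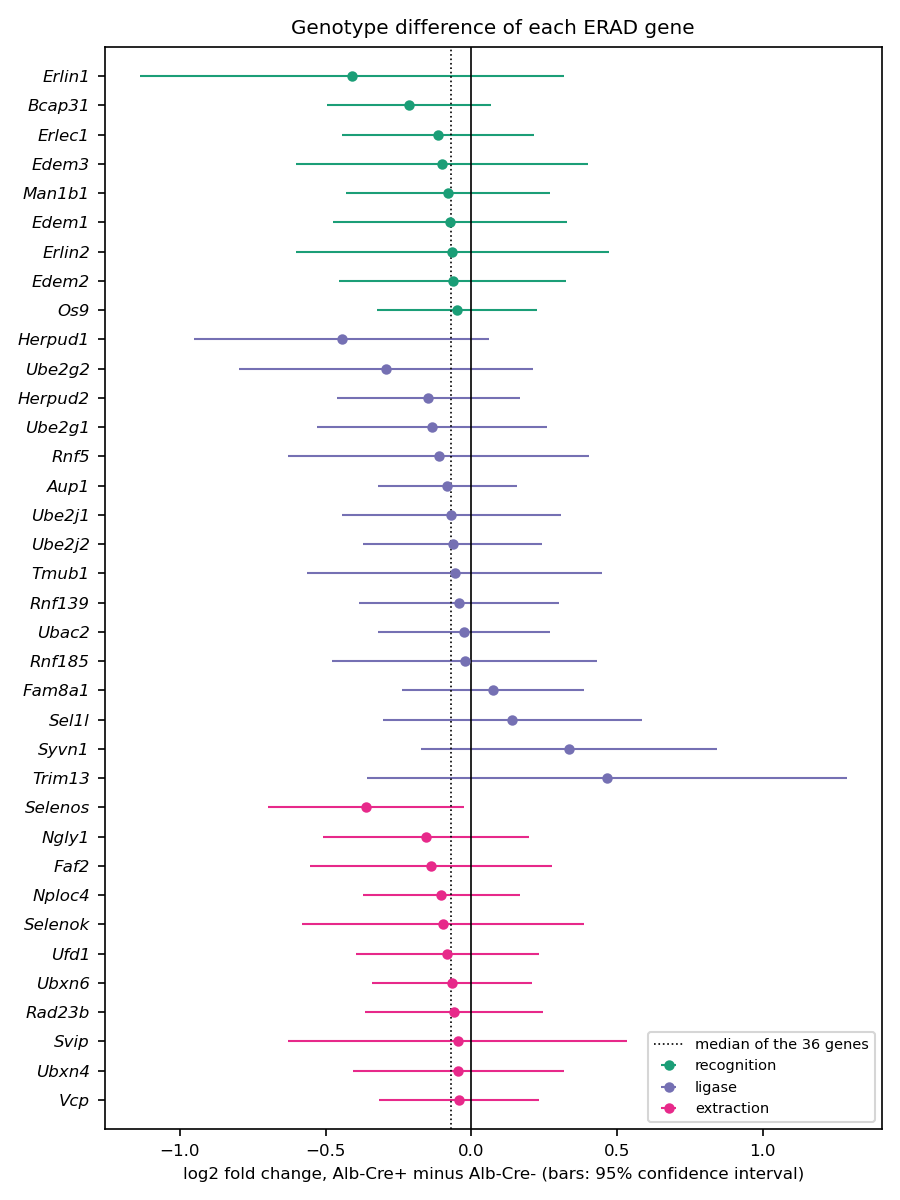
Log2 fold change (Alb-Cre+ minus Alb-Cre-) of each ERAD gene with its 95% confidence interval, by step; the dotted line is the median of the 36 genes, -0.07. Only the interval of Selenos leaves out 0, before adjustment for the 14189 genes tested.

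Summed over all 36 genes, ERAD mRNA was 1599, 1683 and 1936 TPM in controls and 1543, 1582 and 1445 TPM in Alb-Cre+ mice. Herpud1 alone made up between 320 and 614 TPM of these sums. The recognition genes summed to 341.6, 324.7 and 375.1 TPM in controls and to 323.1, 321.1 and 307.9 TPM in Alb-Cre+ mice. The ligase genes summed to 742.8, 827.7 and 1050.0 TPM and to 737.0, 742.0 and 698.3 TPM, and the extraction genes to 514.5, 531.0 and 510.9 TPM and to 482.8, 519.4 and 438.4 TPM. The sums of recognition and ligase genes were separated between genotypes by less than 2 TPM, and those of extraction genes overlapped. Without Herpud1 the ligase genes summed to 399.8, 410.7 and 436.3 TPM in controls and 397.7, 421.5 and 378.5 TPM in Alb-Cre+ mice, and the genotypes overlapped.

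The 3 pairs of same-numbered mice did not share a direction. In pair 3, 35 of the 36 ERAD genes were lower in the Alb-Cre+ mouse, against 25 in pair 1 and 14 in pair 2, the female one. Over all genes tested the shares were 65.8% in pair 3, 54.7% in pair 1 and 33.0% in pair 2, in the same order across pairs as for the ERAD genes. The median log2 difference of the ERAD genes was -0.05, 0.06 and -0.25 in pairs 1, 2 and 3, beside -0.02, 0.15 and -0.14 for all genes. In 8 of 36 genes all 3 pairs were lower, where 12.4% of all genes were. These 8 include the 5 genes with separated values, for which lower pairs follow from the separation.

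**Figure D4:**
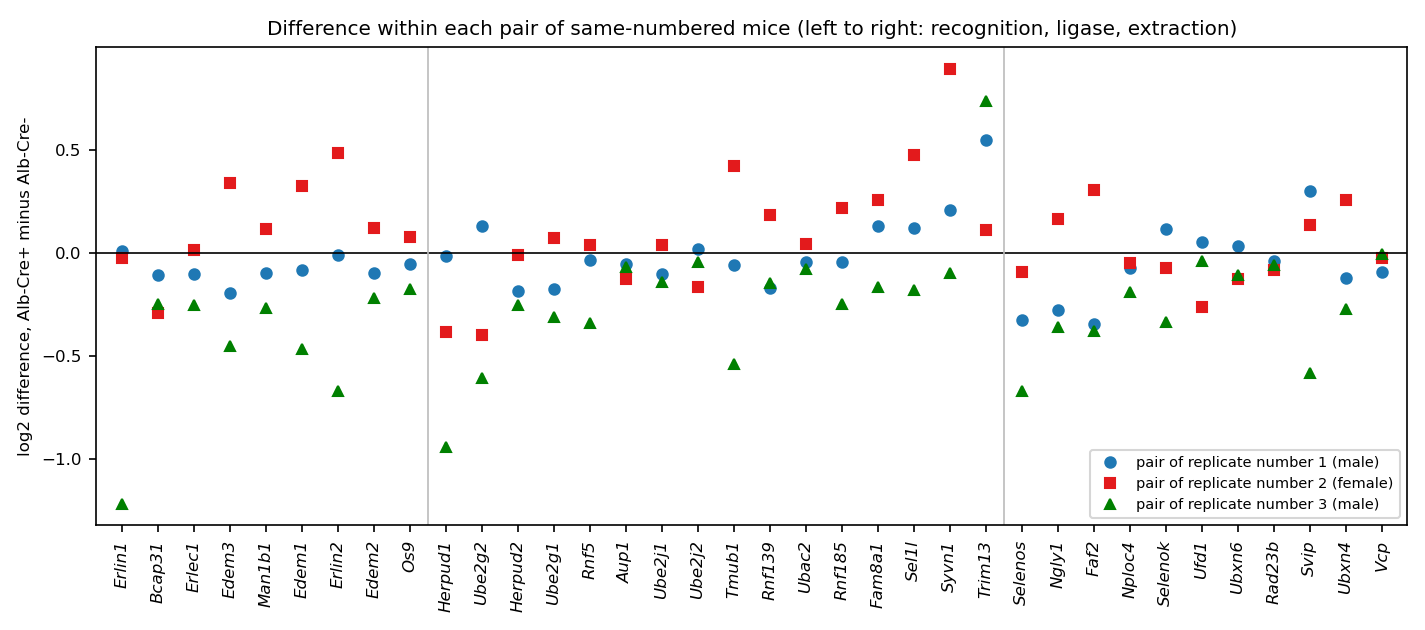
Log2 difference (Alb-Cre+ minus Alb-Cre-) of each ERAD gene within each pair of same-numbered mice, by step from left to right. Pair 3 lies below 0 for 35 of 36 genes, the female pair 2 lies above 0 for 22, and Trim13 is the only gene above 0 in all 3.

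Alb-Cre+ replicate 3 was the lowest of the 6 mice in 21 of the 36 ERAD genes, and in 42.4% of all genes tested. The female Alb-Cre+ mouse was the highest in 15 of 36, and in 45.8% of all genes. After median-of-ratios scaling the order changed: control replicate 3 was then the highest of the 6 in 23 of the 36 ERAD genes (20.3% of all genes), and the female Alb-Cre+ mouse the lowest in 18 (23.2% of all genes). Without Alb-Cre+ replicate 3, 23 of 36 point estimates were lower and the median log2 fold change of the ERAD genes was -0.03. The median of all genes was then 0.11. In the 4 male mice alone, a comparison of 2 against 2, all Alb-Cre+ values were below all control values in 21 of the 36 ERAD genes and in 24.0% of all genes. Alb-Cre+ replicate 3 also had the lowest hepatocyte and Kupffer cell marker sums, and the female Alb-Cre+ mouse the highest Kupffer cell sum; their part in these counts was not tested.

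Between the sexes, which was examined after the data were seen, the result turned with the scaling. On TPM as deposited, both female values exceeded all 4 male values in 7 ERAD genes (36.6% of all genes) and were below them in 2 (5.0% of all genes). After median-of-ratios scaling these counts were 0 (18.6% of all genes) and 13 (21.0% of all genes), and that scaling moved the median log2 difference of all genes, female minus male, from 0.26 to -0.01. Rnf5 and Edem2 were the lower ones under both scalings. Rnf5 had 44.6 and 45.9 TPM in female mice and 56.8 to 71.9 TPM in male mice, a log2 difference of -0.52 with an SE of 0.12 (limma, adjusted p = 0.0513) on TPM as deposited and -0.81 (adjusted p = 0.0162) after median-of-ratios scaling. None of the 36 genes reached an adjusted p of 0.01 between the sexes, where 0.514% of all genes did on TPM as deposited and 0.438% after median-of-ratios scaling, and none did so for a difference of the genotype effect between the sexes, where the smallest adjusted p of the 36 was 0.775. Sex and replicate number 2 cannot be told apart here.

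At the level of transcripts, 135 of the 199 listed transcripts of the 36 genes had a mean of at least 0.1 TPM. In 25 of the 36 genes a single transcript made up more than 80% of the level, while Os9 was divided between transcripts with 51.0% and 49.0% and the leading transcript of Ube2j2 held 41.2%. No ERAD transcript was called, and 3 of 135 had an unadjusted p under 0.05, where 2.84% of all transcripts tested did. With the replicate block there were 4. One of the 3 is a Syvn1 transcript (ENSMUST00000134667.8), which holds 26.1% of that gene's level. It had 4.78, 4.30 and 3.04 TPM in controls and 5.970, 6.502 and 5.699 TPM in Alb-Cre+ mice. The values were separated with Alb-Cre+ mice higher, at a log2 fold change of 0.60 with an SE of 0.22 (limma, adjusted p = 1.00), while the leading transcript of Syvn1 overlapped (0.22). The other 2 are a Herpud1 transcript with 1.95% of that gene's level, lower in Alb-Cre+ mice (-0.998), and an Aup1 transcript with 0.142%, higher (1.54, from 0 to 0.399 TPM).

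Genes around the 36 were read from lists compiled alongside them. Of 47 other ERAD genes 44 were tested, none had an unadjusted p under 0.05, and 27 were lower and 17 higher by point estimate, with a median log2 fold change of -0.04. Of the 44, 3 were separated between genotypes in either direction, and 4.9% of all genes tested were. Uggt1, the folding sensor that sends glycoproteins back to their chaperones, had 6.63, 5.41 and 6.96 TPM in controls and 7.70, 9.75 and 7.46 TPM in Alb-Cre+ mice (log2 fold change 0.38, SE 0.19). Tmem259 (membralin), a membrane ERAD factor, and Ubxn1, a p97 cofactor, were lower at log2 fold changes of -0.15 and -0.23.

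Of 32 proteasome subunit genes, which encode the protease at the end of the pathway, 30 had lower point estimates and 2 higher, with a median log2 fold change of -0.12. Lower point estimates were found in 50.4% of all genes tested, and in 57.2% of those at 5 TPM or more. None had an unadjusted p under 0.05, and 6 were separated with Alb-Cre+ mice lower (Psma7, Psmb1, Psmb7, Psmc2, Psmc5 and Psmd7), by log2 fold changes of -0.18 to -0.12. Over all genes tested, 2.71% were separated in that direction. In 20 of the 32 all 3 pairs were lower, against 12.4% of all genes. The 6 genes of ubiquitin supply had a median of -0.03, with 4 lower and 2 higher. Of the 6 transcription factors that act on ERAD genes, none had an unadjusted p under 0.05, and with the replicate block 1 did (Creb3l3, log2 fold change 0.26).

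Xbp1, whose spliced product activates ERAD genes, had 100.7, 107.4 and 96.3 TPM in controls and 94.8, 199.5 and 76.4 TPM in Alb-Cre+ mice. The female Alb-Cre+ mouse stood apart from the other 5 mice, and the log2 fold change was 0.16 with an SE of 0.33 (limma, adjusted p = 1.00), or -0.25 without that mouse. TPM of the gene do not separate spliced from unspliced Xbp1. Against these levels stands Derl3, the inducible derlin and a partner of the HRD1 complex, with 0.98, 0.59 and 0.82 TPM in controls and 5.62, 6.25 and 14.4 TPM in Alb-Cre+ mice. Its log2 fold change was 3.19 with an SE of 0.40 (limma, adjusted p = 0.456), while the largest absolute log2 fold change among the 36 ERAD genes was 0.46. The paper's own comparison, made with DESeq2, ranks Derl3 first in significance among upregulated genes. It reports genes as significant at a false discovery rate under 0.01, where limma on TPM called 0 genes. The paper also reports no detected upregulation of Xbp1, Ire1 or other ERAD components in mRNA. Derl1 and Derl2, the other derlins, had log2 fold changes of -0.21 and -0.12 with overlapping values.

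**Figure D5:**
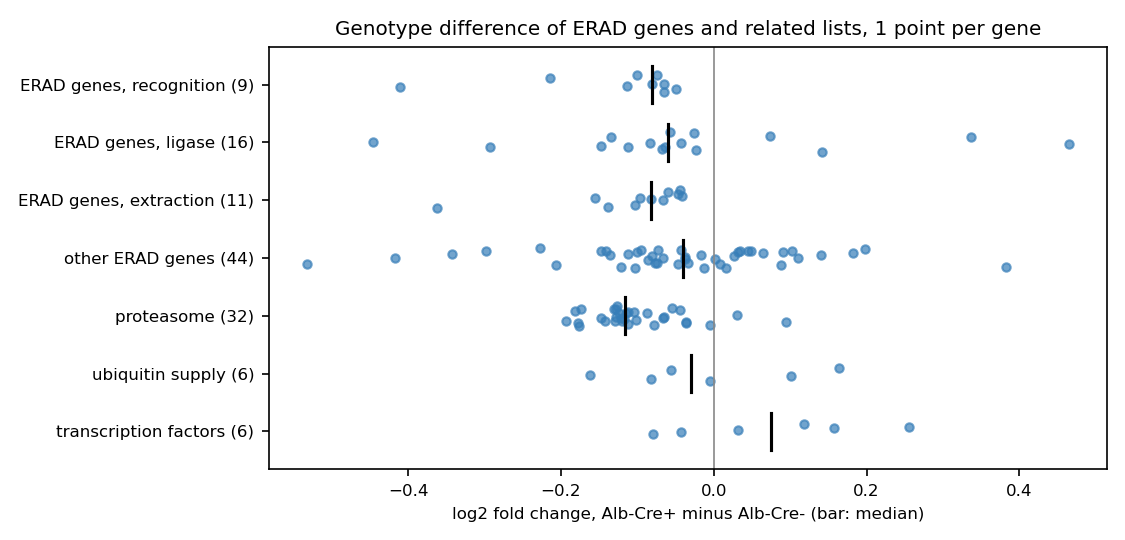
Log2 fold change (Alb-Cre+ minus Alb-Cre-) of the ERAD genes by step and of 4 related lists, 1 point per gene with the median as a bar and the number of genes tested in brackets. Medians run from -0.12 for the proteasome to 0.08 for the transcription factors; Derl3, at 3.19, belongs to none of these lists.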

How the data were processed

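Liver RNA of 6 mice was sequenced, and the authors deposited TPM per transcript and mouse, which sum to 1000000 in each mouse. The submitters' processing notes and the paper's methods name STAR, RSEM, DESeq2, Salmon and GRCm38. No tool versions are given in the sources used here, and the deposited TPM table is labelled as salmon output. The table of the authors' own comparison (mean, log2 fold change, error, statistic, p and adjusted p) was not used. TPM of 116748 transcripts were summed by gene symbol, leaving out 163 transcripts without one (0.0515% to 0.0887% of TPM).

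In R 4.3.3, limma 3.58.1 (trend on mean level, genotype as the only factor) was run on log2(TPM + 0.1), keeping genes that averaged 0.1 TPM or more; count tests do not apply to TPM. Genes were called at an adjusted p of 0.01. The procedure was tested on simulated data. The simulated mice were drawn independently, without sex or replicate structure, so that test does not cover these features of the real mice. Deviations of same-numbered mice from their genotype mean correlated across genes with r = 0.367, 0.588 and 0.37 for numbers 1, 2 and 3. For different numbers r was -0.444 to 0.171. The 3 deviations of a genotype sum to 0, so positive values for same numbers tend to lower the others. Number 2 was also the female mouse of each genotype, so number and sex cannot be told apart for it. On these values the numbers were used as a block in a second fit. The paper describes the controls as littermates, but whether same-numbered mice shared a litter is not given in the sources used here. The 6 libraries are from separate animals.

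The 36 genes and all lists were chosen with earlier results of these data known. Values per mouse are given for ERAD genes with separated values, an unadjusted p under 0.05 with or without the block, the largest fold change of their step in each direction or its highest mean level; genes of other lists are named by separation or unadjusted p under 0.05, at most 6 a list, and Derl3 and Xbp1 in any case. Alternatives were the block, sex as a covariate, a pseudocount of 1 TPM, no filter, a minimum mean of 1 TPM, median-of-ratios scaling, limma without the trend, an adjusted p of 0.05, the highest transcript alone, and each mouse left out. Male mice alone, the comparison of the sexes and the promoter search were added after the data were seen. Gene positions, exon overlaps and 31-base stretches come from GENCODE M21, promoters from RefSeq.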

Additional observations from a re-analysis of the deposited data

How the results depend on the processing

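No ERAD gene was called under the alternatives of the genotype comparison, and no ERAD transcript with the replicate block or a minimum mean of 1 TPM, those run for transcripts. Among all genes (the highest transcript alone was not counted there), 0 were called under each alternative run except without Alb-Cre+ replicate 1, where 1 was (Gm10240, named after its values were seen); over the fits that leave out a mouse the count was 0 to 1. The number of genes with an unadjusted p under 0.05, 250, was 666 with the replicate block, 776 with the replicate block and median of ratios, 531 with sex as a covariate, 442 with no filter, 522 in male mice alone, and 183 to 506 with a mouse left out. The 1 ERAD gene with an unadjusted p under 0.05 became 0 with limma without the trend, 2 in male mice alone (Selenos and Trim13), and 0 to 2 with a mouse left out. ERAD genes with all Alb-Cre+ values below all control values numbered 2 after median of ratios (2.9% of all genes) and 21 in male mice alone (24.0% of all genes). With a mouse left out they numbered 5 to 16. The share of all genes was not counted for those fits, and fewer mice are separated more easily. The 16 came without the female Alb-Cre+ mouse, where the median log2 fold change was -0.148 for ERAD genes and -0.1244 for all genes. ERAD genes with female values above or below all male values changed from 7 and 2 to 0 and 13 after median of ratios. Of 208 values of named genes under alternatives, 202 kept direction and call, and the log2 fold changes of the other 6 changed sign. Much of this was fixed in advance. The block, the sex covariate, the filters and limma without the trend leave each log2 fold change as it was. No named gene was called in any setting. With a mouse left out, Vcp ranged from -0.0849 to 0.0293 (above 0 without control replicate 1), Sel1l from -0.0339 to 0.3212 and Xbp1 from -0.2521 to 0.4402 (both below 0 without Alb-Cre+ replicate 2). In male mice alone Sel1l was -0.0265, Fam8a1 -0.0178 and Xbp1 -0.21. The replicate block changed no other call, and the cause of these changes was not tested. With 3 mice per genotype and unknown depth, small differences were not detectable here. Large ones could also go uncalled: Derl3, at a log2 fold change of 3.19, had an adjusted p of 0.456 in limma. The lack of calls therefore does not show that levels were equal.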
